A study of Mus musculus with 18 samples.

Results

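The genes described here are 10 that carry the RANK, lymphotoxin and noncanonical NF-kB signal: the receptors Tnfrsf11a (RANK) and Ltbr, the RANK ligand Tnfsf11, its decoy receptor Tnfrsf11b (osteoprotegerin), the kinase Map3k14 (NIK), the adaptors Traf3 and Traf6, the NF-kB subunits Relb and Nfkb2, and the inhibitor Nfkbia (IkB alpha). They were taken by symbol from a table of 27179 genes, and all 10 were among the 19364 genes with enough reads to be tested. Tnfsf11 was the one gene among them with few reads, at 0 to 19 per library.

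RANK and the lymphotoxin beta receptor sit on thymic epithelial cells and receive ligands made by developing T cells and innate lymphoid cells. In resting cells TRAF3 directs the kinase NIK to degradation; a bound receptor stops this, NIK accumulates, the p100 precursor made from Nfkb2 is cut to p52, and p52 enters the nucleus with RELB. In the thymic medulla this route is known for the growth and maturation of medullary epithelial cells, including those that make the autoimmune regulator AIRE, while TRAF6 and the canonical route held back by IkB alpha act beside it.

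RNA-seq libraries came from thymic epithelial cells (TEC) sorted from mice labelled as Kat7 knockout (KO) and from wildtype (WT) mice, all of the C57BL/6 background. KAT7 is a histone acetyltransferase. The groups were mTEChi KO and mTEChi WT (medullary TEC with high surface MHC class II), mTEClo KO and mTEClo WT (low MHC class II), and cTEC KO and cTEC WT (cortical TEC). Each group had 3 libraries, from mouse pools 4 to 6 for KO and pools 1 to 3 for WT, and each pool gave 1 library of every subset. Unless another fit is named, all p-values below come from a single fit that took the 18 libraries as independent. Its estimate of spread was shared over the 6 groups. KO and WT came from different pools, but the spread used to compare them also drew on other subsets of the same pools. A fit with the compared groups alone was run as an alternative. For comparisons between subsets and differences of the KO effects, a fit with the mouse pool as a block was run too. The part of Kat7 that was deleted, the cells it was deleted in, the age of the mice and the days of sorting are not given in the sources used here, so genotype and any batch between KO and WT pools cannot be told apart.

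Total counts were 6802970 to 13373646 in mTEChi KO and 3554089 to 8445355 in mTEChi WT, 14411708 to 19356071 in mTEClo KO and 6565309 to 9815559 in mTEClo WT, and 15822957 to 20054360 in cTEC KO and 13300969 to 18338441 in cTEC WT. Kat7 itself was at 0.765 to 4.16 CPM (counts scaled to the size of each library) in the 9 KO libraries and at 38.6 to 83.4 CPM in the 9 WT libraries. The sorted subsets carried their defining markers: Aire averaged 677 CPM in mTEChi KO and 1184 CPM in mTEChi WT, against 17.3 to 49.8 CPM in the other 4 groups. Psmb11, the proteasome subunit of cortical cells, averaged 651 CPM in cTEC KO and 232 CPM in cTEC WT, against 17.6 to 91.3 CPM in the others. The ribosomal precursor Rn45s took 0.307% to 0.42% of counts in mTEClo KO and 0.974% to 1.23% in mTEClo WT, and 0.285% to 0.68% in the other groups. These are bulk samples, in which fewer cells of a type and less RNA per cell cannot be told apart.

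Most of the 10 genes were lower in KO than in WT in cTEC and in mTEClo, and 0 were called lower in mTEChi. A gene was called when its Benjamini-Hochberg adjusted p from edgeR's quasi-likelihood test, over all 19364 genes, was below 0.05. In KO cTEC 7 of the 10 fell and 2 rose, against 26.7% of all tested genes lower and 22.3% higher. In KO mTEClo 6 fell and 0 rose, against 15.8% lower and 18.9% higher, and 1 of the 4 genes that were not called, Ltbr, had an unadjusted p of 0.042. In KO mTEChi 0 fell and 2 rose, against 19.3% lower and 17.1% higher, and none of the 8 genes that were not called had an unadjusted p under 0.05; Nfkbia was called lower there by DESeq2 (adjusted p = 0.0372). The count in mTEClo was 2 without the KO library of pool 5 or 6 and 3 without the WT library of pool 2 or 3, and that in mTEChi was 1 without the KO library of pool 4 or the WT library of pool 3. The median log2 fold change of the 10 genes, KO over WT, was -0.49 in cTEC, -0.34 in mTEClo and -0.10 in mTEChi, and that of all tested genes was -0.02, 0.01 and -0.11 in the same order of subsets.

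**Figure D1:**
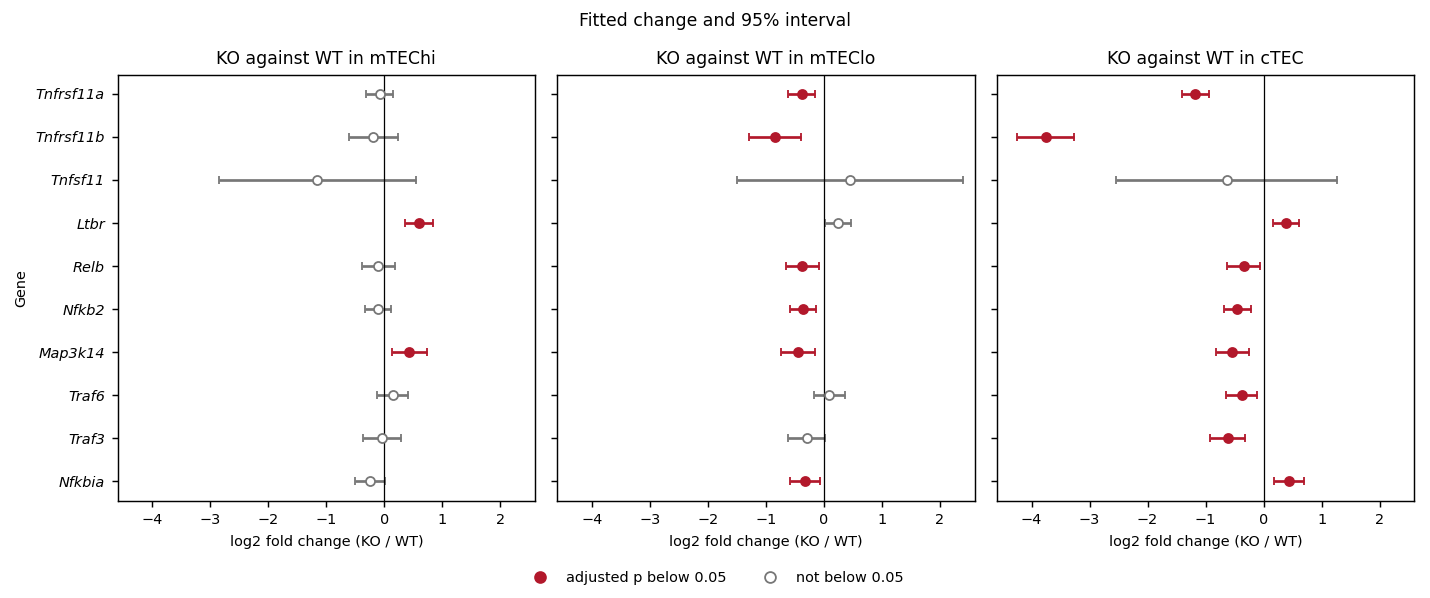
Fitted log2 fold change of KO over WT (points, horizontal axis) with its 95% interval (bars) for each of the 10 genes (vertical axis) in mTEChi, mTEClo and cTEC, with filled points for an adjusted p below 0.05. Tnfrsf11b in cTEC lies farthest from 0, at -3.76, and Tnfsf11 has the widest intervals.

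Between subsets the genes were mostly highest in mTEChi. In KO, 7 rose and 1 fell in mTEChi against mTEClo (23.0% of all tested genes higher, 22.4% lower), 7 rose and 1 fell in mTEChi against cTEC (34.0% higher, 28.4% lower), and 2 rose and 1 fell in mTEClo against cTEC (21.2% higher, 15.8% lower). In WT, 7 rose and 2 fell in mTEChi against mTEClo (32.6% higher, 26.7% lower), 7 rose and 2 fell in mTEChi against cTEC (35.9% higher, 28.5% lower), and 2 rose and 2 fell in mTEClo against cTEC (13.0% higher, 14.4% lower). Markers of macrophages and dendritic cells were also highest in mTEChi. They summed to 792 to 947 CPM in mTEChi KO and 1563 to 1616 CPM in mTEChi WT, against 32.6 to 214 CPM over the other groups. The part of such cells in the differences between subsets was not tested. The difference of the KO effects between subsets was tested too. It was called for 6 genes between mTEChi and cTEC (5 of them with the higher log2 fold change in mTEChi, against 18.3% of all tested genes, and 1 with the lower, against 13.2%). Between mTEClo and cTEC it was called for 3 genes (2 higher in mTEClo, against 16.4%, and 1 lower, against 9.54%), and between mTEChi and mTEClo for 1 gene, higher in mTEChi (6.72% of all tested genes higher and 6.78% lower).

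**Figure D2:**
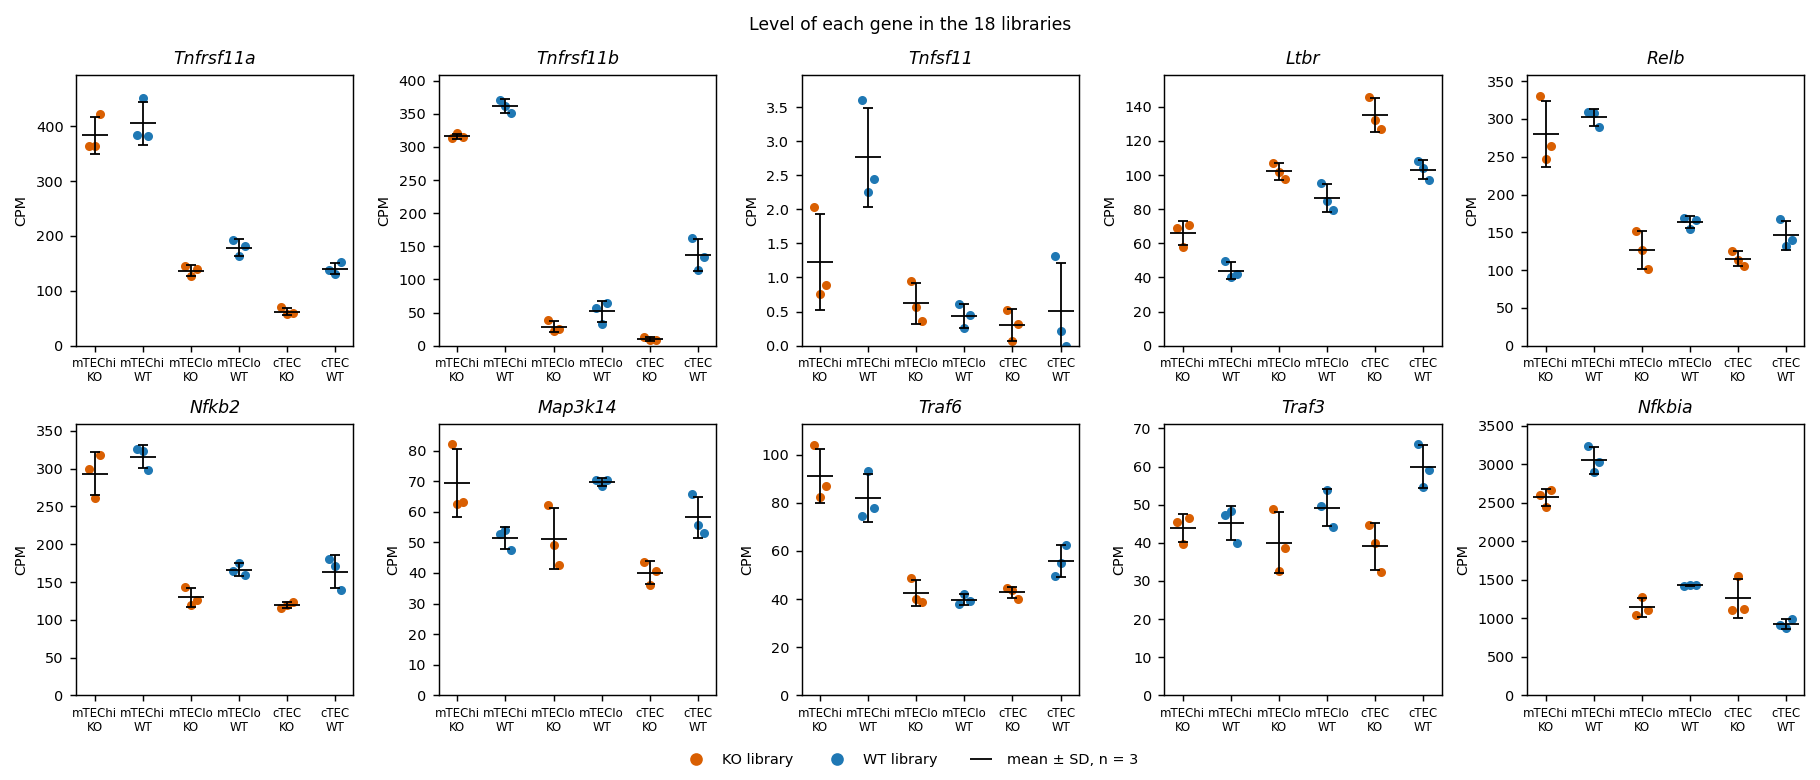
Level of each of the 10 genes in CPM (vertical axes, from 0) in the 18 libraries, by subset and genotype, with KO points left of WT points and black marks for the mean ± SD of 3 libraries. In cTEC the 3 KO points of Tnfrsf11a and Tnfrsf11b lie under all 3 WT points, while those of Ltbr and Nfkbia lie above.

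Tnfrsf11a (Entrez 21934, chr1:105780673-105849444, here and below on GRCm38.p6) encodes RANK, the receptor whose signal drives mTEC maturation. It was 2.26-fold lower in KO cTEC. The cTEC libraries held 70.1, 57.0 and 59.2 CPM in KO and 138, 131 and 152 CPM in WT. All 3 KO libraries lay below all 3 WT libraries with a log2 fold change of -1.18 (SE 0.11, adjusted p = 7.15e-08), and this call was kept under every alternative that was run. In mTEClo the levels were 145, 126 and 140 CPM in KO and 193, 163 and 181 CPM in WT, again without overlap (-0.39, SE 0.11, adjusted p = 0.011; 0.0596 without the KO library of pool 5). In mTEChi they were 364, 364 and 423 CPM in KO and 384, 451 and 382 CPM in WT, and the groups overlapped (-0.08, 95% interval -0.31 to 0.15, adjusted p = 0.588).

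Ranked by mean level, Tnfrsf11a was highest in mTEChi WT (406 ± 39.3 CPM, SD, n = 3 here and below) and mTEChi KO (384 ± 33.9), whose libraries overlapped. It was then 179 ± 15.1 CPM in mTEClo WT, 140 ± 10.5 in cTEC WT and 137 ± 9.43 in mTEClo KO, of which the last pair overlapped, and lowest in cTEC KO (62.1 ± 7.01). The span from mTEChi to cTEC was wider in KO, at 6.17-fold, than in WT, at 2.89-fold. That difference in log2 fold change between mTEChi and cTEC was 1.09 (SE 0.16, adjusted p = 3.04e-05), and between mTEClo and cTEC it was 0.79 (SE 0.16, adjusted p = 0.00107). The higher level of mTEClo than of cTEC was 1.14 (SE 0.11, adjusted p = 9.1e-08) on the log2 scale in KO and 0.35 (SE 0.11, adjusted p = 0.025) in WT. The WT value lost its call without the cTEC library of pool 1 (0.0659) or pool 2 (0.0787) and without the mTEClo library of pool 1 (0.0992) or pool 3 (0.0654), and also with no filter on low counts (0.0632) or with the compared groups alone (0.0755).

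Tnfrsf11b (Entrez 18383, chr15:54250619-54278484) encodes osteoprotegerin, the secreted decoy that binds RANK ligand and keeps it from RANK. It had the largest change of the 10 genes between KO and WT. In cTEC it was at 13.1, 9.0 and 8.47 CPM in KO (198, 139 and 161 reads) and at 163, 115 and 134 CPM in WT (2237, 2161 and 2519 reads). The KO level was 13.5-fold lower, far outside the spread of either group (log2 fold change -3.76, SE 0.23, adjusted p = 1.84e-10), with values of -3.98 to -3.62 over the alternatives. The mTEClo libraries held 38.5, 22.8 and 24.7 CPM in KO and 56.6, 33.3 and 64.8 CPM in WT. One KO library lay above 1 WT library, and the gene was still called lower (-0.85, SE 0.21, adjusted p = 0.00424). In mTEChi the 3 KO libraries, at 314, 321 and 315 CPM, lay below the 3 WT libraries, at 372, 362 and 351 CPM, by an amount that was not called (-0.19, 95% interval -0.61 to 0.23, adjusted p = 0.476).

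The order of subsets for Tnfrsf11b was not the same in the 2 genotypes. In KO it ran from mTEChi (316 ± 4.01 CPM) over mTEClo (28.7 ± 8.54) to cTEC (10.2 ± 2.52), each step called. In WT it was 362 ± 10.2 CPM in mTEChi and 51.6 ± 16.4 in mTEClo, with cTEC between them at 137 ± 24.2. The mTEClo level was thus above the cTEC level in KO (by 1.49 on the log2 scale, SE 0.23, adjusted p = 2.14e-05) and below it in WT (-1.41, SE 0.21, adjusted p = 6.8e-05), and the KO effects differed by 2.91 (SE 0.31, adjusted p = 9.65e-07). Between mTEChi and cTEC the KO effects differed by 3.56 (SE 0.30, adjusted p = 3.84e-08). Between mTEChi and mTEClo the difference of 0.66 (SE 0.29, adjusted p = 0.153) was not called, though it was without the mTEClo KO library of pool 4 (0.0338) or the mTEClo WT library of pool 2 (0.0369).

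Markers of other cells also differed between KO and WT cTEC, where 22.3% of all tested genes were called higher in KO and 26.7% lower. The 5 markers of mature mTEC had 0 higher and 4 lower in KO cTEC (summed, 2175 to 3057 CPM in KO and 2650 to 2914 CPM in WT), with Aire at 17.3 ± 5.38 CPM in KO and 49.8 ± 24.1 CPM in WT. Of 11 tested markers of macrophages and dendritic cells, 0 were higher and 5 lower, and the list summed to 32.6 to 42.5 CPM in KO and 138 to 214 CPM in WT. Of 9 thymocyte markers 6 were higher and 0 lower (212 to 338 CPM in KO, 43.8 to 113 in WT), and 7 of 8 cTEC markers were higher. Of 9 fibroblast and mural markers 2 were higher and 5 lower (2411 to 2547 CPM in KO, 1093 to 1344 in WT). The part of these in the changes of Tnfrsf11a, Tnfrsf11b and the other genes in cTEC was not tested. Set against the mean of WT mTEChi, the cTEC level of Tnfrsf11b was 2.82% in KO and 38.0% in WT, and that of Tnfrsf11a 15.3% in KO and 34.6% in WT, while that of Aire was 1.46% in KO and 4.21% in WT.

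**Figure D3:**
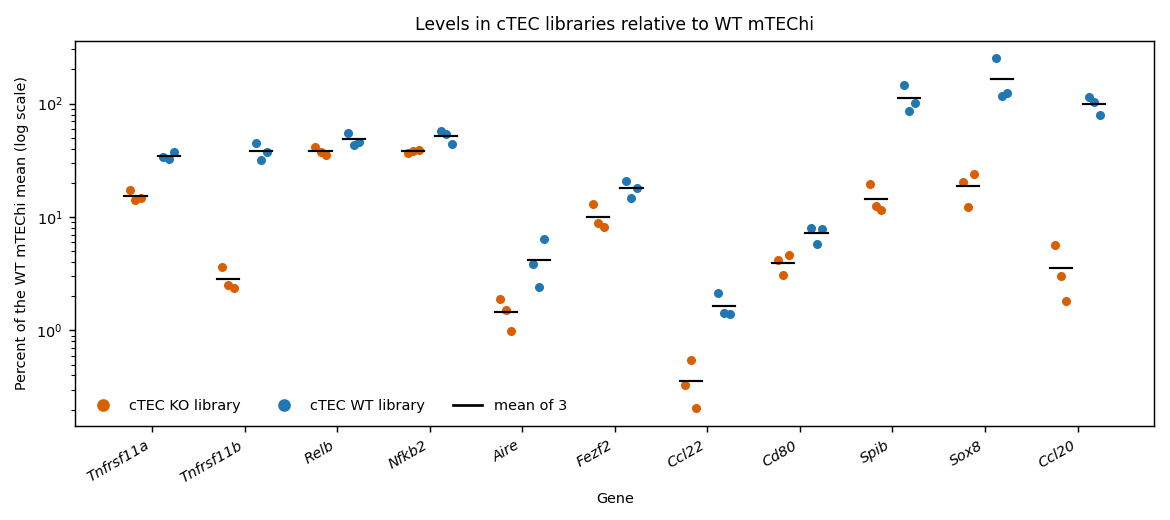
Level of 11 genes in each cTEC library as a percentage of the mean of the 3 WT mTEChi libraries (vertical axis, log scale), with KO points left of WT points and a line at the mean of 3. Tnfrsf11b averages 2.82% in KO and 38.0% in WT, and Ccl20 3.52% in KO and 99.2% in WT; Aire is at most 6.40% in any library.

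Tnfsf11 (Entrez 21943, chr14:78277446-78308043) encodes the RANK ligand, which in the thymus is mainly a product of lymphoid cells. It was near the limit of detection in all groups, and no change with genotype was called. In mTEChi it had 17, 10 and 6 reads in KO (2.03, 0.759 and 0.883 CPM) and 13, 19 and 18 reads in WT (3.60, 2.26 and 2.44 CPM). The KO libraries lay below the WT libraries, with a log2 fold change of -1.16 whose 95% interval ran from -2.86 to 0.55 (adjusted p = 0.278; 0.0429 with the mTEChi groups alone). In mTEClo it had 14, 10 and 7 reads in KO and 6, 2 and 3 reads in WT (0.45, 95% interval -1.50 to 2.40, adjusted p = 0.75). In cTEC it had 8, 1 and 6 reads in KO and 18, 4 and 0 reads in WT (-0.64, 95% interval -2.54 to 1.26, adjusted p = 0.59).

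Within WT, Tnfsf11 was higher in mTEChi than in mTEClo (log2 fold change 2.57, SE 0.91, adjusted p = 0.0204) and than in cTEC (2.49, SE 0.85, adjusted p = 0.0149). The first of these calls was lost without the mTEChi library of pool 1 (0.0537) or the mTEClo library of pool 2 (0.0701) or 3 (0.0515), and the second without the cTEC library of pool 2 (0.053) or with the compared groups alone (0.0716). Within KO the excess of mTEChi over cTEC, 1.97 (SE 0.89), was not called (adjusted p = 0.0607), but it was in the fit with the mouse pool as a block (0.0465), without the cTEC library of pool 4 (0.0462), with the compared groups alone (0.0164) and by DESeq2 (0.0496). Markers of innate lymphoid cells, which can carry RANK ligand, summed to 84.8 to 103 CPM in mTEChi KO and 76.1 to 89.9 CPM in mTEChi WT, against 22.1 to 35.7 CPM over the other groups. Thymocyte markers summed to 61.0 to 77.9 CPM in mTEChi KO and 68.4 to 90.2 CPM in mTEChi WT. They summed to 30.2 to 43.7 CPM in mTEClo KO and 22.8 to 33.2 in mTEClo WT. Their highest sums were in cTEC KO, at 212 to 338 CPM, with 43.8 to 113 CPM in cTEC WT. The part of such cells in the Tnfsf11 reads was not tested.

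Ltbr (Entrez 17000, chr6:125306571-125313885) encodes the lymphotoxin beta receptor. It was the one gene of the 10 that was higher in KO in both mTEChi and cTEC. In mTEChi it was at 69.1, 58.1 and 70.8 CPM in KO and at 49.6, 40.2 and 41.9 CPM in WT. The KO libraries all lay above the WT libraries (log2 fold change 0.60, SE 0.12, adjusted p = 0.000588). In cTEC it was at 146, 133 and 127 CPM in KO and at 108, 104 and 97.1 CPM in WT, likewise without overlap (0.39, SE 0.11, adjusted p = 0.00549). In mTEClo the KO libraries, at 107, 102 and 97.6 CPM, again lay above the WT libraries, at 95.2, 84.8 and 79.4 CPM, but the difference was not called (0.24, 95% interval 0.01 to 0.47, adjusted p = 0.1). The KO effects on Ltbr in the 3 subsets were not shown to differ (adjusted p = 0.15 for mTEChi against mTEClo, 0.338 for mTEChi against cTEC and 0.507 for mTEClo against cTEC), though the first was called with those groups alone (0.0433).

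The level of Ltbr had the same order of subsets in both genotypes. Its mean was lowest in mTEChi, at 66.0 ± 6.91 CPM in KO and 43.9 ± 5.01 in WT, higher in mTEClo, at 102 ± 4.79 in KO and 86.5 ± 8.02 in WT, and highest in cTEC, at 135 ± 9.86 in KO and 103 ± 5.60 in WT. Of neighbours in the order of all 6 groups, only mTEClo KO and cTEC WT had libraries that overlapped. Within each genotype every step was called except mTEClo against cTEC in WT (log2 fold change -0.25, SE 0.11, adjusted p = 0.092), which was called with the mouse pool as a block (0.0499). Epithelial markers rose beside Ltbr in KO: the 5 tested summed to 5175 to 6254 CPM in mTEChi KO and 3266 to 3580 in mTEChi WT, with all 5 called higher, and to 6340.5 to 6450.2 CPM in cTEC KO and 4422 to 5184 in cTEC WT, with 4 of 5 called higher. In mTEClo, where Ltbr was not called, they summed to 5994 to 6275 CPM in KO and 4063 to 4971 CPM in WT, with all 5 called higher. Among all tested genes 17.1% were called higher in KO mTEChi, 22.3% in KO cTEC and 18.9% in KO mTEClo. The part of the epithelial markers in the change of Ltbr was not tested.

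Other receptors and ligands of the pathway were described from a list of 13 genes, of which 12 were tested (Cd40lg was not). In KO cTEC 2 rose and 5 fell (median log2 fold change -0.54), against 22.3% of all tested genes higher and 26.7% lower. In KO mTEClo 0 rose and 5 fell (-0.50), against 18.9% higher and 15.8% lower. In KO mTEChi 1 rose and 2 fell (-0.20), against 17.1% higher and 19.3% lower. Cd40, a receptor of the same family that also feeds mTEC growth, averaged 324 ± 9.45 CPM in mTEChi KO and 464 ± 2.13 in mTEChi WT (log2 fold change -0.52, SE 0.14, adjusted p = 0.0091). Tnfrsf1a, the widely expressed TNF receptor, was higher in mTEChi, at 61.9 ± 8.11 CPM in KO and 46.3 ± 4.76 in WT (0.42, SE 0.12, adjusted p = 0.0112). Tnfrsf1b, the other TNF receptor, fell to 3.28 ± 0.328 CPM in cTEC KO, against 14.4 ± 1.79 in cTEC WT (-2.12, SE 0.18, adjusted p = 1.07e-08), and to 5.04 ± 0.0288 CPM in mTEClo KO, against 8.55 ± 0.617 in mTEClo WT (-0.76, SE 0.18, adjusted p = 0.00257). Tnfsf13b, the B cell factor BAFF, was at 1.09 ± 0.561 CPM in mTEClo KO and 3.85 ± 0.686 in mTEClo WT (-1.81, SE 0.45, adjusted p = 0.00369). Ltb, which encodes the membrane-bound lymphotoxin beta that LTBR binds, was at 3.69 ± 0.774 CPM in cTEC KO and 9.38 ± 1.16 in cTEC WT (-1.35, SE 0.28, adjusted p = 0.000454). Its partner Lta was not called there (log2 fold change 0.40), with few reads per library (5 to 11 in KO and 1 to 13 in WT).

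Map3k14 (Entrez 53859, chr11:103219764-103267401, overlapped in the annotation by Gm34823, from which these unstranded libraries cannot tell it apart) encodes NIK, the kinase that starts p100 processing. It moved in opposite directions in the subsets. In mTEChi it was at 82.1, 62.6 and 63.2 CPM in KO and at 52.9, 54.2 and 47.5 CPM in WT, with every KO library above every WT library (log2 fold change 0.43, SE 0.14, adjusted p = 0.0257). This call was lost without the KO library of pool 4 (0.131) or the WT library of pool 3 (0.0992). In mTEClo it was at 62.1, 49.1 and 42.5 CPM in KO and at 70.5, 68.4 and 70.5 CPM in WT, with every KO library below (-0.45, SE 0.14, adjusted p = 0.0176). That call was lost without the KO library of pool 5 (0.0616) or 6 (0.113) or the WT library of pool 3 (0.0503). The cTEC libraries held 43.6, 36.1 and 40.6 CPM in KO and 65.7, 55.7 and 53.1 CPM in WT, also with every KO library below, and kept under every alternative run (-0.54, SE 0.14, adjusted p = 0.0035).

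The opposite directions of Map3k14 were tested as differences of the KO effects. They were 0.88 between mTEChi and mTEClo (SE 0.20, adjusted p = 0.00565) and 0.96 between mTEChi and cTEC (SE 0.20, adjusted p = 0.00106), both called under all 17 alternatives. With them the order of the subsets turned: mTEChi was above mTEClo in KO (by 0.44 on the log2 scale, SE 0.14, adjusted p = 0.0152) and below it in WT (-0.44, SE 0.14, adjusted p = 0.013). The KO value lost its call without the mTEChi library of pool 4 (0.103) or the mTEClo library of pool 5 (0.0556) or 6 (0.102), and the WT value without the mTEChi library of pool 3 (0.0742) and by DESeq2 (0.0516). In KO, mTEClo and cTEC were not called different (0.35, SE 0.14, adjusted p = 0.054), but were with the mouse pool as a block (0.0188), without the cTEC library of pool 4 (0.043) or the mTEClo library of pool 6 (0.0183) and with those groups alone (0.0408). By mean level the order was mTEClo WT (69.8 ± 1.22 CPM), mTEChi KO (69.3 ± 11.1), cTEC WT (58.2 ± 6.65), mTEChi WT (51.5 ± 3.57), mTEClo KO (51.2 ± 10) and cTEC KO (40.1 ± 3.81), and the libraries of each of these neighbours overlapped.

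Markers of other cells differed between genotypes in the medullary subsets too. Of all tested genes, 17.1% were called higher and 19.3% lower in KO mTEChi, and 18.9% higher and 15.8% lower in KO mTEClo. In mTEChi the mature mTEC markers summed to 6109 to 6414 CPM in KO and 9211 to 9809 CPM in WT (3 of 5 lower), those of cTEC to 3426 to 3743 CPM in KO and 2317 to 2471 CPM in WT (7 of 8 higher), and those of macrophages and dendritic cells to 792 to 947 CPM in KO and 1563 to 1616 CPM in WT (7 of 11 lower). In mTEClo the mature mTEC markers summed to 1439 to 1705 CPM in KO and 2386 to 2539 CPM in WT (3 of 5 lower, 1 higher), those of immature mTEC to 4100 to 4542 CPM in KO and 6170 to 6719 CPM in WT (3 of 6 lower), and those of cTEC to 2530 to 2878 CPM in KO and 1882 to 2342 CPM in WT (7 of 8 higher). Fibroblast and mural markers summed to 554 to 648 CPM in mTEChi KO and 296 to 314 CPM in mTEChi WT, and to 702 to 800 CPM in mTEClo KO and 1071 to 1215 CPM in mTEClo WT, with 3 of 9 higher and 3 lower in each subset. The part of these cells in the changes of the 10 genes in the medullary subsets was not tested.

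Traf3 (Entrez 22031, chr12:111166321-111267155, overlapped by 4930595D18Rik) encodes the adaptor that holds NIK down. It was lower in KO cTEC, at 44.8, 39.9 and 32.4 CPM in KO and 66.0, 54.7 and 59.2 CPM in WT. The groups did not overlap, with a log2 fold change of -0.62 (SE 0.15, adjusted p = 0.00171), and the call was kept under every alternative run. The mTEClo libraries held 48.7, 32.7 and 38.7 CPM in KO and 49.6, 53.9 and 44.2 CPM in WT, with overlap (-0.30, 95% interval -0.61 to 0.01, adjusted p = 0.129; 0.0302 without the KO library of pool 4). In mTEChi it was at 45.5, 39.8 and 46.4 CPM in KO and at 47.4, 48.2 and 40.0 CPM in WT (-0.04, 95% interval -0.36 to 0.28, adjusted p = 0.846).

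The means of Traf3 over the 6 groups lay between 39.1 ± 6.21 CPM in cTEC KO and 60.0 ± 5.72 in cTEC WT. In the order of means cTEC WT was followed without overlap by mTEClo WT (49.2 ± 4.87), then by mTEChi WT, mTEChi KO, mTEClo KO and cTEC KO, of which all neighbours overlapped. In KO no pair of subsets was called different. In WT it was lower in mTEChi than in cTEC (log2 fold change -0.41, SE 0.15, adjusted p = 0.0231), a call lost without the mTEChi library of pool 3 (0.127) or the cTEC library of pool 1 (0.0725), with RLE scaling (0.0657) and by DESeq2 (0.0754). The KO effects in mTEChi and cTEC differed by 0.58 (SE 0.21, adjusted p = 0.0448). That value was not called without the cTEC KO library of pool 5 (0.064) or 6 (0.115), the cTEC WT library of pool 1 (0.0907), the mTEChi KO library of pool 4 (0.0719) or 6 (0.0807), or the mTEChi WT library of pool 3 (0.111).

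Traf6 (Entrez 22034, chr2:101678420-101701668) encodes the ubiquitin ligase that links RANK to the canonical route. In cTEC it was at 44.6, 43.8 and 40.2 CPM in KO and at 49.6, 54.9 and 62.6 CPM in WT. The KO libraries lay below the WT libraries (log2 fold change -0.38, SE 0.13, adjusted p = 0.0179), a call lost without the KO library of pool 6 (0.073) or the WT library of pool 3 (0.0865). The medullary subsets overlapped between genotypes: mTEChi had 82.4 to 104 CPM in KO and 74.5 to 93.3 CPM in WT (0.15, adjusted p = 0.379), and mTEClo had 38.6 to 48.7 CPM in KO and 37.8 to 42.2 CPM in WT (0.09, adjusted p = 0.61). The KO effects in mTEChi and cTEC differed by 0.53 (SE 0.18, adjusted p = 0.0305). This was lost without the cTEC KO library of pool 6 (0.0677), the cTEC WT library of pool 3 (0.067), the mTEChi KO library of pool 4 (0.0759) or the mTEChi WT library of pool 1 (0.0623) or 3 (0.0672).

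Across subsets Traf6 was highest in mTEChi, at 91.1 ± 11.3 CPM in KO and 81.9 ± 9.99 in WT. In KO, mTEClo (42.4 ± 5.46 CPM) and cTEC (42.9 ± 2.33) overlapped (log2 fold change -0.02, adjusted p = 0.952), whereas in WT mTEClo (39.7 ± 2.27) lay below cTEC (55.7 ± 6.56; -0.49, SE 0.13, adjusted p = 0.00828). The KO effects in mTEClo and cTEC differed by 0.47 (SE 0.18, adjusted p = 0.0599), which was not called, but was with the mouse pool as a block (0.0302), without the cTEC WT library of pool 1 (0.0386) and by DESeq2 (0.0412).

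Among 21 other adaptors, kinases and regulators of the route, 2 rose and 8 fell in KO cTEC (median log2 fold change -0.24), against 22.3% of all tested genes higher and 26.7% lower. In KO mTEClo 2 rose and 3 fell (0.00), against 18.9% higher and 15.8% lower. In KO mTEChi 5 rose and 4 fell (0.21), against 17.1% higher and 19.3% lower. Traf1, an adaptor that is itself a known NF-kB target, fell to 7.86 ± 0.718 CPM in cTEC KO, against 53.8 ± 11.9 in cTEC WT (-2.77, SE 0.18, adjusted p = 2.22e-10). In mTEClo it was at 14.2 ± 0.519 CPM in KO and 31.9 ± 3.15 in WT (-1.16, SE 0.17, adjusted p = 2.47e-05). Ikbke, an IkB kinase related to TBK1, was at 7.70 ± 1.25 CPM in cTEC KO and 26.5 ± 1.80 in cTEC WT (-1.79, SE 0.20, adjusted p = 4.14e-07), and at 7.17 ± 1.81 CPM in mTEClo KO and 27.3 ± 4.53 in mTEClo WT (-1.93, SE 0.20, adjusted p = 4.82e-07). In mTEChi the 2 genes with the smallest adjusted p were higher in KO: Ripk1, the kinase at the TNF receptor, was at 74.7 ± 5.42 CPM in KO and 48.0 ± 2.10 in WT (0.64, SE 0.13, adjusted p = 0.000642). Traf5, an adaptor close to TRAF3, was at 15.5 ± 2.46 CPM in KO and 7.63 ± 1.58 in WT (0.97, SE 0.22, adjusted p = 0.00182).

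**Figure D4:**
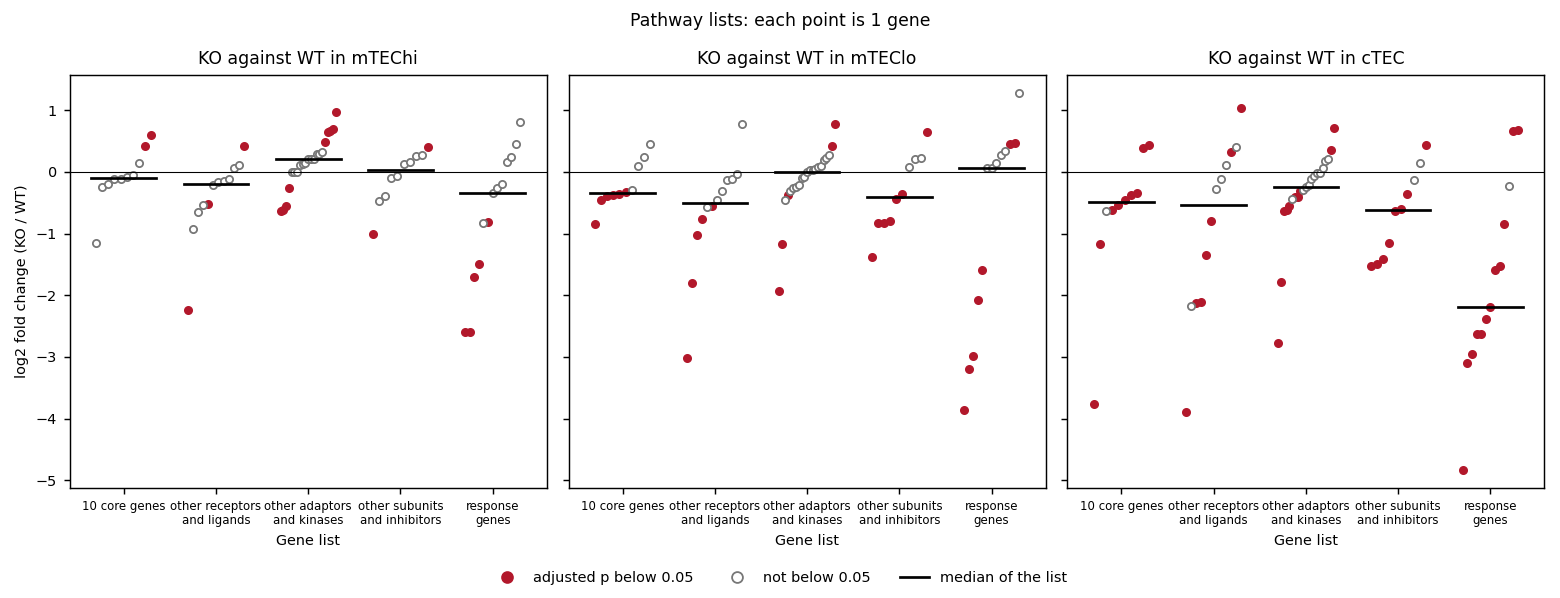
Log2 fold change of KO over WT (vertical axis) for every tested gene of the 10 core genes and of the 4 further lists (horizontal axis), by subset, with filled points for an adjusted p below 0.05 and a line at each list's median. The median of the response genes is -2.19 in cTEC, 0.07 in mTEClo and -0.34 in mTEChi.

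Relb (Entrez 19698, chr7:19606217-19629438) encodes the subunit that carries the noncanonical signal on DNA. In mTEClo it was at 151, 126 and 102 CPM in KO and at 169, 155 and 167 CPM in WT. Every KO library lay below every WT library (log2 fold change -0.37, SE 0.14, adjusted p = 0.0414), but the call was lost without the KO library of pool 5 (0.0923) or 6 (0.232) or without the WT library of pool 1 (0.0972), 2 (0.0743) or 3 (0.104). The cTEC libraries held 126, 114 and 106 CPM in KO and 168, 131 and 139 CPM in WT, again without overlap (-0.34, SE 0.14, adjusted p = 0.0441). That call was lost without the KO library of pool 5 (0.103) or 6 (0.152) or the WT library of pool 1 (0.205). In mTEChi, at 330, 247 and 264 CPM in KO and 310, 308 and 289 CPM in WT, the libraries overlapped (-0.11, 95% interval -0.39 to 0.18, adjusted p = 0.559).

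Nfkb2 (Entrez 18034, chr19:46300994-46312400, overlapped by 4833438C02Rik and Psd) encodes p100, the precursor of p52. In cTEC it was at 116, 120 and 123 CPM in KO and at 181, 171 and 139 CPM in WT. The groups did not overlap, with a log2 fold change of -0.45 (SE 0.11, adjusted p = 0.00199), and the call was kept under every alternative run. In mTEClo it was at 143, 120 and 126 CPM in KO and at 165, 175 and 159 CPM in WT, also without overlap (-0.36, SE 0.11, adjusted p = 0.0146), a call lost without the KO library of pool 5 (0.0753) or 6 (0.0542) or the WT library of pool 2 (0.0826). In mTEChi, at 300, 262 and 318 CPM in KO and 326, 323 and 299 CPM in WT, the libraries overlapped (-0.11, 95% interval -0.34 to 0.12, adjusted p = 0.458).

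Both subunit genes were higher in mTEChi than in either other subset in both genotypes, by log2 fold changes of 0.89 to 1.28 for Relb and 0.92 to 1.29 for Nfkb2. Relb averaged 281 ± 43.9 CPM in mTEChi KO and 302 ± 11.4 in mTEChi WT, and 115 to 164 CPM in the other 4 groups. Nfkb2 averaged 293 ± 28.7 CPM in mTEChi KO and 316 ± 15.1 in mTEChi WT, and 120 to 166 CPM in the others. For neither gene did mTEClo and cTEC differ by a called amount within a genotype. None of the differences of the KO effects between subsets was called for Relb, at adjusted p of 0.377 to 0.952, or for Nfkb2, at 0.0967 to 0.72. For Nfkb2 the one between mTEChi and cTEC (0.34, SE 0.15) was called with those groups alone (0.0439), without the cTEC WT library of pool 3 (0.0233) and without the mTEChi KO library of pool 5 (0.0413).

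Nfkbia (Entrez 18035, chr12:55489409-55492647) encodes IkB alpha, which holds canonical NF-kB dimers in the cytoplasm and is itself made in response to them. It was higher in KO cTEC and lower in KO mTEClo. In cTEC it was at 1105, 1552 and 1119 CPM in KO and at 918, 874 and 995 CPM in WT, with the KO library of pool 5 far above the other two. The KO libraries all lay above the WT libraries (log2 fold change 0.44, SE 0.12, adjusted p = 0.00609), but the call was lost without that library of pool 5 (0.26, adjusted p = 0.0762) and with the cTEC groups alone (0.0625). In mTEClo it was at 1048, 1282 and 1102 CPM in KO and at 1418, 1432 and 1434 CPM in WT. The KO libraries lay below the WT libraries, and the adjusted p of 0.04996 was just under the threshold (-0.32, SE 0.12). It was over the threshold with no filter on low counts (0.0537) and without the KO library of pool 4 (0.178) or 6 (0.142) or the WT library of pool 1 (0.0816), 2 (0.13) or 3 (0.106).

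In mTEChi the KO libraries of Nfkbia, at 2603, 2446 and 2667 CPM, also lay below the WT libraries, at 3235, 2895 and 3027 CPM, without a call in edgeR (log2 fold change -0.25, 95% interval -0.50 to 0.01, adjusted p = 0.122). The direction in cTEC was thus set against that in both medullary subsets. The KO effects differed by -0.69 between mTEChi and cTEC (SE 0.17, adjusted p = 0.00525) and by -0.76 between mTEClo and cTEC (SE 0.17, adjusted p = 0.00315), both called under all 17 alternatives. By mean level the order was mTEChi WT (3052 ± 171 CPM), mTEChi KO (2572 ± 114), mTEClo WT (1428 ± 9.10), cTEC KO (1259 ± 254), mTEClo KO (1144 ± 122) and cTEC WT (929 ± 61.3). In that order the libraries of cTEC KO overlapped those of both its neighbours, and the other neighbours did not overlap.

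Levels per kilobase of the deposited gene length allow a rough comparison of genes. By this measure Nfkbia was the most abundant of the 10 genes in every group, at 588 to 1933 CPM per kilobase (group means), and Tnfsf11 the least, at 0.136 to 1.24. In mTEChi the next were Relb (127 in KO, 137 in WT), Tnfrsf11b (112 in KO, 128 in WT), Nfkb2 (89.1 in KO, 96.0 in WT) and Tnfrsf11a (76.4 in KO, 80.8 in WT). In cTEC KO the gene after Nfkbia was Ltbr (64.6), followed by Relb (52.3) and Nfkb2 (36.4), with Tnfrsf11b at 3.61. In cTEC WT it was Relb (66.3), followed by Nfkb2 (49.7), Ltbr (49.3) and Tnfrsf11b (48.7). Over the 6 groups Traf3 was at 5.60 to 8.60, Traf6 at 7.25 to 16.6 and Map3k14 at 9.61 to 16.7 CPM per kilobase, in cTEC KO all above Tnfrsf11b.

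**Figure D5:**
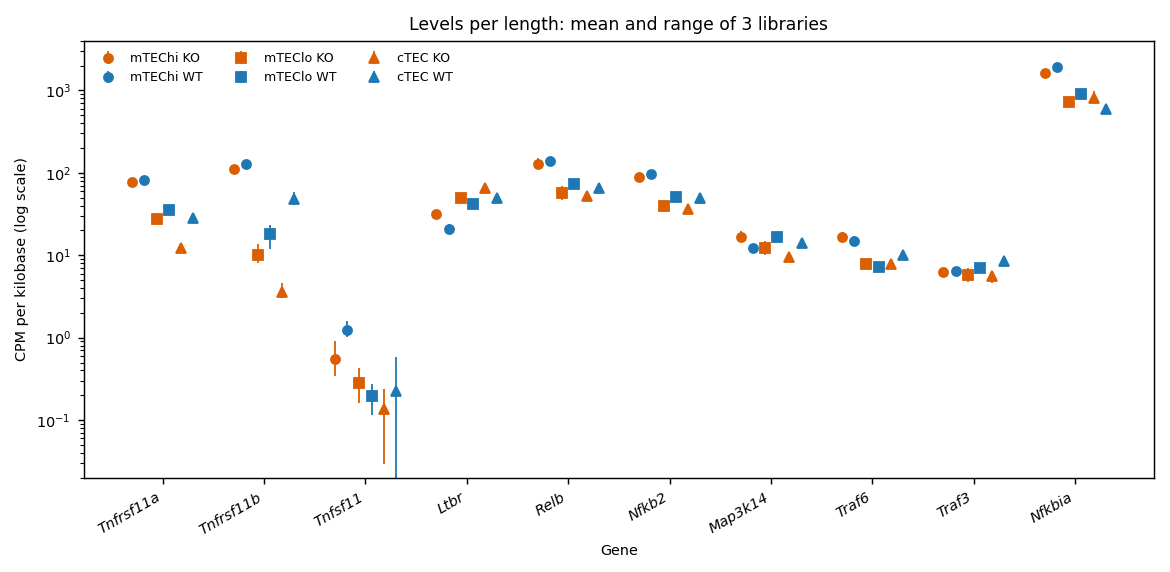
Level of each of the 10 genes in CPM per kilobase of the deposited gene length (vertical axis, log scale): the mean of 3 libraries (point) and their range (bar), with KO left of WT within each subset. The means of Nfkbia lie between 588 and 1933 and those of Tnfsf11 between 0.136 and 1.24; the cTEC WT bar of Tnfsf11 runs off the axis because 1 library had 0 reads.

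Promoter sequence was looked up because Nfkb2 and Nfkbia are textbook targets of NF-kB factors. RefSeq's promoter table on GRCm38.p6 (250 bases before to 50 after each start site) held 10 windows of 8 of the 10 genes; Tnfrsf11b and Relb were not matched. The windows were searched on both strands for the NF-kB consensus. It was present in 5 of the 10 windows and in 3 of the 8 genes (37.5%), namely Nfkb2, Traf3 and Nfkbia, against 1480 of 32851 windows (4.51%) and 1388 of 27025 genes (5.14%) in the whole table. Nfkb2 and Nfkbia, the reason for the search, are among these 3 genes, so the shares are not a test of the 10 genes as a set. Of the 3 windows of Nfkb2, 2 overlap and share 1 match, which is counted in both. The windows of Tnfrsf11a, Tnfsf11, Ltbr, Map3k14 and Traf6 held no match to these letters. A match is a description of the sequence, not of binding. Of 3 start sites of Nfkb2, the first is shown (chr19:46304487-46304786, plus strand), with matches that begin 39, 38 (overlapping the one before) and 11 bases before the start site. The Traf3 window (chr12:111166120-111166419, plus strand) has a match 10 bases before it, and the Nfkbia window (chr12:55492598-55492897, minus strand) one 29 bases before it. Capitals mark the matches.
Nfkb2: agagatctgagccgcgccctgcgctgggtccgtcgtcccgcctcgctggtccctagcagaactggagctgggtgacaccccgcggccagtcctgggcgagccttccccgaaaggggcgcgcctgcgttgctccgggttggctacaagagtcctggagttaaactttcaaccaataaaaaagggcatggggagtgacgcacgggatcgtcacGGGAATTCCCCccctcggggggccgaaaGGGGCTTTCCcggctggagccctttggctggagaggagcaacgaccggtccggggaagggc
Traf3: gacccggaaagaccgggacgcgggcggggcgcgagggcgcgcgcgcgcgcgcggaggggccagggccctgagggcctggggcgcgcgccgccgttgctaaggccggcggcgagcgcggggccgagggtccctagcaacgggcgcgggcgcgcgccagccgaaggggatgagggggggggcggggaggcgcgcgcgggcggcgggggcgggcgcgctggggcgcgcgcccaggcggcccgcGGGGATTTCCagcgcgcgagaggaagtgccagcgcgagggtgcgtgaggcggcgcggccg
Nfkbia: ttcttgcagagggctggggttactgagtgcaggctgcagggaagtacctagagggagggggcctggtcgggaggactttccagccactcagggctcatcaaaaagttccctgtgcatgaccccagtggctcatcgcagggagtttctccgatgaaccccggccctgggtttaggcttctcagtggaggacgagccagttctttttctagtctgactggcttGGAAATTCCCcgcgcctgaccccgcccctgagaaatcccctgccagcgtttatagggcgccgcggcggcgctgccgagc
Of the 3 genes with a match, Nfkb2 and Traf3 were called lower in KO cTEC and Nfkbia higher. Of the searched genes without a match, Tnfrsf11a, Map3k14 and Traf6 were called lower there and Ltbr higher, and Tnfsf11 was not called. Among all tested genes 26.7% were called lower and 22.3% higher in KO cTEC. The Nfkbia call was lost without the KO library of pool 5 (adjusted p = 0.0762 in edgeR). In mTEClo the log2 fold changes were -0.36 for Nfkb2, -0.32 for Nfkbia and -0.30 for Traf3, the last not called. In mTEChi they were -0.11, -0.25 and -0.04 in the same order, none of them called.

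Among 10 other NF-kB subunits and inhibitors, 1 rose and 7 fell in KO cTEC (median log2 fold change -0.62), against 22.3% of all tested genes higher and 26.7% lower. In KO mTEClo 1 rose and 6 fell (-0.40), against 18.9% higher and 15.8% lower. In KO mTEChi 1 rose and 1 fell (0.04), against 17.1% higher and 19.3% lower. Tnfaip3, which encodes the feedback inhibitor A20, was at 58.1 ± 11.1 CPM in cTEC KO and 167 ± 40.9 in cTEC WT (-1.52, SE 0.17, adjusted p = 3.13e-07). Nfkbiz, an atypical nuclear IkB protein, was at 123 ± 33.4 CPM in cTEC KO and 345 ± 58.9 in cTEC WT (-1.49, SE 0.17, adjusted p = 5e-07), and at 110 ± 6.77 CPM in mTEClo KO and 287 ± 39.0 in mTEClo WT (-1.39, SE 0.17, adjusted p = 2.8e-06). Bcl3, another nuclear IkB protein, was at 62.1 ± 8.19 CPM in mTEClo KO and 110 ± 3.41 in mTEClo WT (-0.82, SE 0.14, adjusted p = 0.000163). In mTEChi the called genes were Nfkbid, a further nuclear IkB protein, at 37.1 ± 1.45 CPM in KO and 74.5 ± 3.11 in WT (-1.0, SE 0.16, adjusted p = 0.000103), and Rela, the main canonical subunit, at 132 ± 11.1 CPM in KO and 100 ± 9.98 in WT (0.40, SE 0.13, adjusted p = 0.0199). Rela was not called in cTEC (log2 fold change 0.15) or mTEClo (log2 fold change 0.22).

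The last list held 13 genes known to respond to RANK, lymphotoxin or NF-kB signals. In KO cTEC 2 rose and 10 fell (median log2 fold change -2.19), against 22.3% of all tested genes higher and 26.7% lower. In KO mTEClo 2 rose and 5 fell (0.07), against 18.9% higher and 15.8% lower. In KO mTEChi 0 rose and 5 fell (-0.34), against 17.1% higher and 19.3% lower. Ccl20, a chemokine gene and a known NF-kB target, fell in all 3 subsets: to 16.0 ± 9.06 CPM in cTEC KO, against 451 ± 81.1 in cTEC WT (-4.83, SE 0.31, adjusted p = 2.19e-10), to 16.3 ± 3.76 CPM in mTEClo KO, against 237 ± 47.5 in mTEClo WT (-3.86, SE 0.29, adjusted p = 7.4e-09), and to 75.1 ± 14.2 CPM in mTEChi KO, against 455 ± 22.9 in mTEChi WT (-2.59, SE 0.27, adjusted p = 1.14e-06). Ccl22, a chemokine of mature mTEC, was at 54.6 ± 9.59 CPM in mTEChi KO and 179 ± 30.4 in mTEChi WT (-1.71, SE 0.23, adjusted p = 1.28e-05), and at 1.49 ± 0.729 CPM in mTEClo KO and 6.25 ± 1.88 in mTEClo WT (-2.08, SE 0.33, adjusted p = 7.21e-05). Spib, a transcription factor gene induced by RANK ligand in mTEC, was at 35.8 ± 10.95 CPM in cTEC KO and 276 ± 77.4 in cTEC WT (-2.94, SE 0.21, adjusted p = 9.77e-10). It was not called in mTEClo (log2 fold change 0.15) or mTEChi (log2 fold change 0.45). The 2 that rose in KO cTEC were the adhesion molecule genes Icam1 (log2 fold change 0.66) and Vcam1 (log2 fold change 0.68). The part of a changed mix of cells in the changes of this list was not tested.

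Some genes of the table had levels close in pattern to those of the pathway. Likeness was Pearson's r of log2(CPM + 1) over the 18 libraries, which share their 6 groups, among 12389 tested genes with a mean of at least 5 CPM. For Tnfrsf11a the closest were Syt1, a synaptic vesicle calcium sensor (r = 0.989), Ctss, the cysteine protease cathepsin S (r = 0.988), and Rac2, a small GTPase of blood cells (r = 0.987). For Tnfrsf11b they were Ncf1, a subunit of the phagocyte oxidase (r = 0.990), Gjb2, a gap junction protein (r = 0.987), and Bcl2a1a, one of a set of near-identical genes whose reads cannot be assigned with certainty (r = 0.985). For Relb they were Il10ra, a receptor chain for interleukin 10 (r = 0.986), H2-Oa, a modulator of MHC class II peptide loading (r = 0.980), and Abcg5, a sterol transporter (r = 0.975). Among the 10 genes the highest r was between Relb and Nfkb2, at 0.965, and Ltbr had a negative r with each of the other 9, from -0.916 with Tnfrsf11a to -0.02 with Traf3.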

How the data were processed

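The authors deposited a count of reads for every gene, and the submitters' processing notes name featureCounts and mm10. The counts were whole numbers with no normalization. The aligner and the counting settings are not given in the sources used here. Per the labels' protocols, cDNA was made with a SMART-Seq v4 kit and libraries with Nextera XT, which do not mark strand, and reads were 75 base pairs, paired. The gene length in the deposited table was used as given for CPM per kilobase.

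The tests used edgeR 4.0.16 under R 4.3.3: filterByExpr (minimum count 10), TMM scaling, 1 mean per group for all 18 libraries (12 residual degrees of freedom), glmQLFit and glmQLFTest, and Benjamini-Hochberg adjustment over 19364 genes with a threshold of 0.05. CPM use TMM-scaled totals. The procedure was also run on simulated counts, drawn independently for each library. That run cannot show how the sharing of pools bears on the p-values. Alternatives were RLE scaling, no filter, DESeq2 1.42.0, the compared groups alone, the mouse pool as a replicate block, and leaving out each library. KO and WT share no pool and were not paired; subsets of 1 pool share mice, per the labels, and same-pool libraries deviated from their group means with r of -0.03 to 0.381, over 0.1 in 10 of 18 pairs.

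The 10 genes, the lists and the tests were chosen with earlier results of these data known. Named list genes were up to 2 per list and subset with the smallest adjusted p in KO against WT; the percentages of WT mTEChi, Icam1, Vcam1, and the values in brackets for genes not called were chosen after values were seen.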

Additional observations from a re-analysis of the deposited data

Results flagged for a closer look

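The KO effects on 6 of the 10 genes differed between subsets by edgeR's test of the difference itself (the log2 fold change of KO over WT in the first subset minus that in the second). Between mTEChi and cTEC the difference was 3.56 for Tnfrsf11b, 1.09 for Tnfrsf11a, 0.96 for Map3k14, 0.58 for Traf3, 0.53 for Traf6 and -0.69 for Nfkbia. Between mTEClo and cTEC it was 2.91 for Tnfrsf11b, 0.79 for Tnfrsf11a and -0.76 for Nfkbia. Between mTEChi and mTEClo it was 0.88 for Map3k14. Among all tested genes the difference was called higher for 18.3% and lower for 13.2% between mTEChi and cTEC. The shares were 16.4% and 9.54% between mTEClo and cTEC, and 6.72% and 6.78% between mTEChi and mTEClo. Map3k14 and Nfkbia are the genes called in opposite directions in 2 subsets. The Nfkbia call was lost in 6 of 10 alternatives in mTEClo and in 2 of 10 in cTEC. That of Map3k14 was lost in 2 of 10 in mTEChi and in 3 of 10 in mTEClo. The differences between mTEChi and cTEC were lost in 6 of 17 alternatives for Traf3 and in 5 of 17 for Traf6.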

How the results depend on the processing

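Over 120 results (10 genes in 12 comparisons), 1465 alternatives gave 1386 values on the same side of the threshold, 58 that lost a call, 21 that gained one and 0 called values with the other sign. Of 68 calls, 51 were kept under every alternative run, and 42 results were called in no fit. Another 33 values of 15 results, called in neither fit, had the other sign. Without 1 library, the number of genes called in mTEChi KO against WT was 1 to 2 (2 with all libraries), in mTEClo 2 to 6 (6), and for the difference of the KO effects between mTEChi and mTEClo 1 to 2 (1); the last was also 2 with the compared groups alone. In the paired fit with the mouse pool as a replicate block, 86 of 90 results kept their side and 4 gained a call: Ltbr in mTEClo against cTEC in WT (-0.26), Map3k14 in mTEClo against cTEC in KO (0.34), Tnfsf11 in mTEChi against cTEC in KO (1.99) and Traf6 in the difference between mTEClo and cTEC (0.46). With the compared groups alone, all genes called numbered 3051 in mTEClo against cTEC in WT (5313 with all groups) and 4117 for the difference between mTEChi and mTEClo (2613). RLE scaling moved the median of all genes by 0.10 in mTEChi against cTEC in KO. The low counts of Tnfsf11 limit what could be detected for it.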

Other observations

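Ratios between the genes per deposited gene length, computed within each library and chosen after the values were seen, set the decoy receptor beside the receptor. The ratio of Tnfrsf11b to Tnfrsf11a was 0.289 ± 0.0394 in cTEC KO (0.255 to 0.332) and 1.75 ± 0.311 in cTEC WT (1.56 to 2.11). It was 0.371 ± 0.0898 in mTEClo KO and 0.509 ± 0.138 in mTEClo WT, with overlap, and 1.48 ± 0.132 in mTEChi KO and 1.60 ± 0.152 in mTEChi WT, also with overlap (SD, n = 3). By contrast the ratio of Nfkb2 to Relb lay between 0.608 and 0.871 over all 18 libraries, with group means of 0.683 to 0.754. The ratio of Nfkbia to Relb was 15.3 ± 3.43 in cTEC KO and 8.96 ± 1.2 in cTEC WT, without overlap, while the genotypes overlapped in mTEChi (13.0 in KO, 14.1 in WT) and mTEClo (13.0 in KO, 12.2 in WT). The ratio of Map3k14 to Traf3, the kinase over the adaptor that directs its degradation, was 2.64 ± 0.369 in mTEChi KO and 1.91 ± 0.0643 in mTEChi WT, without overlap. It was 2.16 ± 0.338 in mTEClo KO and 2.39 ± 0.273 in mTEClo WT, and 1.74 ± 0.307 in cTEC KO and 1.62 ± 0.108 in cTEC WT, both with overlap.

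In cTEC WT 3 response genes, chosen after their values were seen, averaged close to or above their level in mTEChi WT, and less than it in cTEC KO. Whether a type of cell that carries these genes was rarer in cTEC KO was not tested. As a percentage of the mTEChi WT mean, Sox8 averaged 18.9% in cTEC KO and 164% in cTEC WT, Spib 14.5% in cTEC KO and 111% in cTEC WT, and Ccl20 3.52% in cTEC KO and 99.2% in cTEC WT. The cTEC WT libraries of pools 1, 2 and 3 were at 251%, 118% and 124% for Sox8. For Spib they were at 146%, 86.3% and 101%, and for Ccl20 at 114%, 104% and 79.6%. By the same measure Aire averaged 1.46% in cTEC KO and 4.21% in cTEC WT, and Ccl22 0.36% in cTEC KO and 1.65% in cTEC WT. In mTEClo, Spib averaged 97.7% in KO and 87.9% in WT.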
